A study of Mus musculus with 113 samples.

Results

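Fgf5, Otx2, Pou3f1, Foxd3 and Sall2 were followed by their gene symbols through 4 deposited expression tables from mouse embryonic stem cells (ESCs) induced to neural fate, 5 of 23739 genes in all. Each of the 5 was present in every table, among 13541 genes of the SFEB cell populations, 13738 of the adherent monoculture, 11449 of the single cells and 23107 of the E14 libraries. In SFEB culture, ESCs float in medium without serum and form aggregates that resemble embryoid bodies. R1 ESCs grown this way without a genetic change gave 22 population libraries, 14 in a first series from 0 to 142 h and 8 in a parallel series from 0 to 216 h, and 64 manually picked single cells, 8 at each of the 8 times of the parallel series. R1 ESCs plated on gelatin in N2B27 medium gave 15 adherent libraries from 0 to 216 h. Before induction the ESCs were grown for a passage without feeder cells. In both systems the cells were replated on coated dishes on day 6. E14 ESCs, wild type (WT) or with a CRISPR-Cas9 deletion that removes the initiation codon of Fyn, a Src family kinase gene (Fyn KO, 1 clone), were collected at day 0 and day 4 of neural induction, with 3 libraries in each of the 4 groups. Which culture protocol these E14 libraries followed is not given in the sources used here.

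After implantation the epiblast leaves the naive state of the inner cell mass and passes through an intermediate, often called formative, before it responds to signals for the germ layers or for neural fate. ESCs pass through a similar interval early in neural induction. Fgf5 encodes a secreted fibroblast growth factor and is a classical marker of the epiblast after implantation. Otx2, a homeodomain factor, and Pou3f1 (Oct6), a POU factor, are known to act in the exit from the naive state and later in the anterior neural plate. Foxd3 is a forkhead factor needed in the epiblast and, much later, in the neural crest. Sall2 is a zinc finger factor of the SALL family that is also expressed in neural tissue.

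On the mouse build NCBIM37 (mm9), to which the R1 reads were mapped, GENCODE M1 places Fgf5 at chr5:98683203-98706049 on the plus strand with 3 exons. Otx2 lies at chr14:49277354-49287319 and Sall2 at chr14:52930847-52948437, both on the minus strand, with 3 to 5 and 2 exons. Pou3f1, at chr4:124334896-124337899, and Foxd3, at chr4:99322990-99325362, are plus-strand genes of 1 exon each. A second entry named Pou3f1, annotated as a pseudogene, covers the same span, and a miRNA entry lies inside Foxd3, so reads there could be credited to either entry. No antisense gene overlapped any of the 5.

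RefSeq promoter sequences (GRCm38.p6, 250 bases before to 50 after the start site) matched 4 of the 5 genes. Those of Foxd3, the first of the 5 to pass 50% of its peak, of Fgf5, the only ligand, and of one Otx2 start site are shown. Capitals mark matches on either strand to TATAAA (held by 13.6% of 32544 mouse promoters of this length), the bicoid-type homeodomain core TAATCC (7.06%), the octamer ATGCAAAT (1.75%) or the SOX core ACAAAG (18.7%).
Foxd3 promoter, chr4:99656049-99656348, plus strand: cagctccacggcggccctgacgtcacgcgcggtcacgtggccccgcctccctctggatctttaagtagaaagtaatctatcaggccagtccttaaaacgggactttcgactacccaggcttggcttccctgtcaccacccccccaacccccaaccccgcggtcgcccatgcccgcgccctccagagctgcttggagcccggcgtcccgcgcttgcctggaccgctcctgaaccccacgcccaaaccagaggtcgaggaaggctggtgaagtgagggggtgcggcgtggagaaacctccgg
Fgf5 promoter, chr5:98253934-98254233, plus strand: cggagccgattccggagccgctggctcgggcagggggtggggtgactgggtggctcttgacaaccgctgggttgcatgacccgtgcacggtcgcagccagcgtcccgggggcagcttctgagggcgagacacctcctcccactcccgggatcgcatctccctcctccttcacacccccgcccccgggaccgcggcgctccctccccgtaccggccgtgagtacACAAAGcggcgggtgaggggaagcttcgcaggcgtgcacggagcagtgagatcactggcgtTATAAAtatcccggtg
Otx2 promoter, chr14:48665060-48665359, minus strand: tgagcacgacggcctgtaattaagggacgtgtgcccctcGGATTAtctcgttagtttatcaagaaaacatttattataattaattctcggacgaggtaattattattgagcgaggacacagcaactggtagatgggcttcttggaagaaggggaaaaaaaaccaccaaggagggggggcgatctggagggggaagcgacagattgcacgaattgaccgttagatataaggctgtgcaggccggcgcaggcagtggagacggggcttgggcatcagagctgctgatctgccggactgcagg
The Fgf5 and Foxd3 windows were rich in CpG, with 29 and 25 CpG dinucleotides against a median of 7 over all promoters, and the Otx2 window held 16, the most of its 4 annotated start sites (6 to 16). The Foxd3 window held none of the 4 motifs. The Fgf5 window held ACAAAG at bases 224 to 229 and TATAAA at bases 285 to 290, counted from its 5′ end, the second downstream of the annotated start. The Otx2 window held TAATCC on the reverse strand at bases 40 to 45, and another Otx2 window, not shown, held TATAAA at bases 59 to 64. None of the windows, including the other Otx2 and the Sall2 start sites, held the octamer.

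The courses are first described by the time of the highest sample, the peak. Values are FPKM, fragment counts scaled to transcript length and sequencing depth, so levels of different genes can be compared. Those of the SFEB populations were further batch corrected by the authors, which departs from plain scaled counts. In the first SFEB series 4 of the 5 genes were highest at 42.5 h, whereas Sall2 was highest at 92 h. Of 13009 genes in that series, 14.9% had their highest sample between 34 and 68.5 h. In the adherent monoculture the same 4 genes were highest between 35.5 and 53.5 h and Sall2 at 101.5 h, where 18.3% of 12879 genes were highest between 34 and 68.5 h. In the parallel SFEB series, which has only 38 and 60 h in that interval, Otx2, Foxd3 and Pou3f1 were highest there (16.3% of 12324 genes), Fgf5 at 84 h and Sall2 at 106 h.

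**Figure D1:**
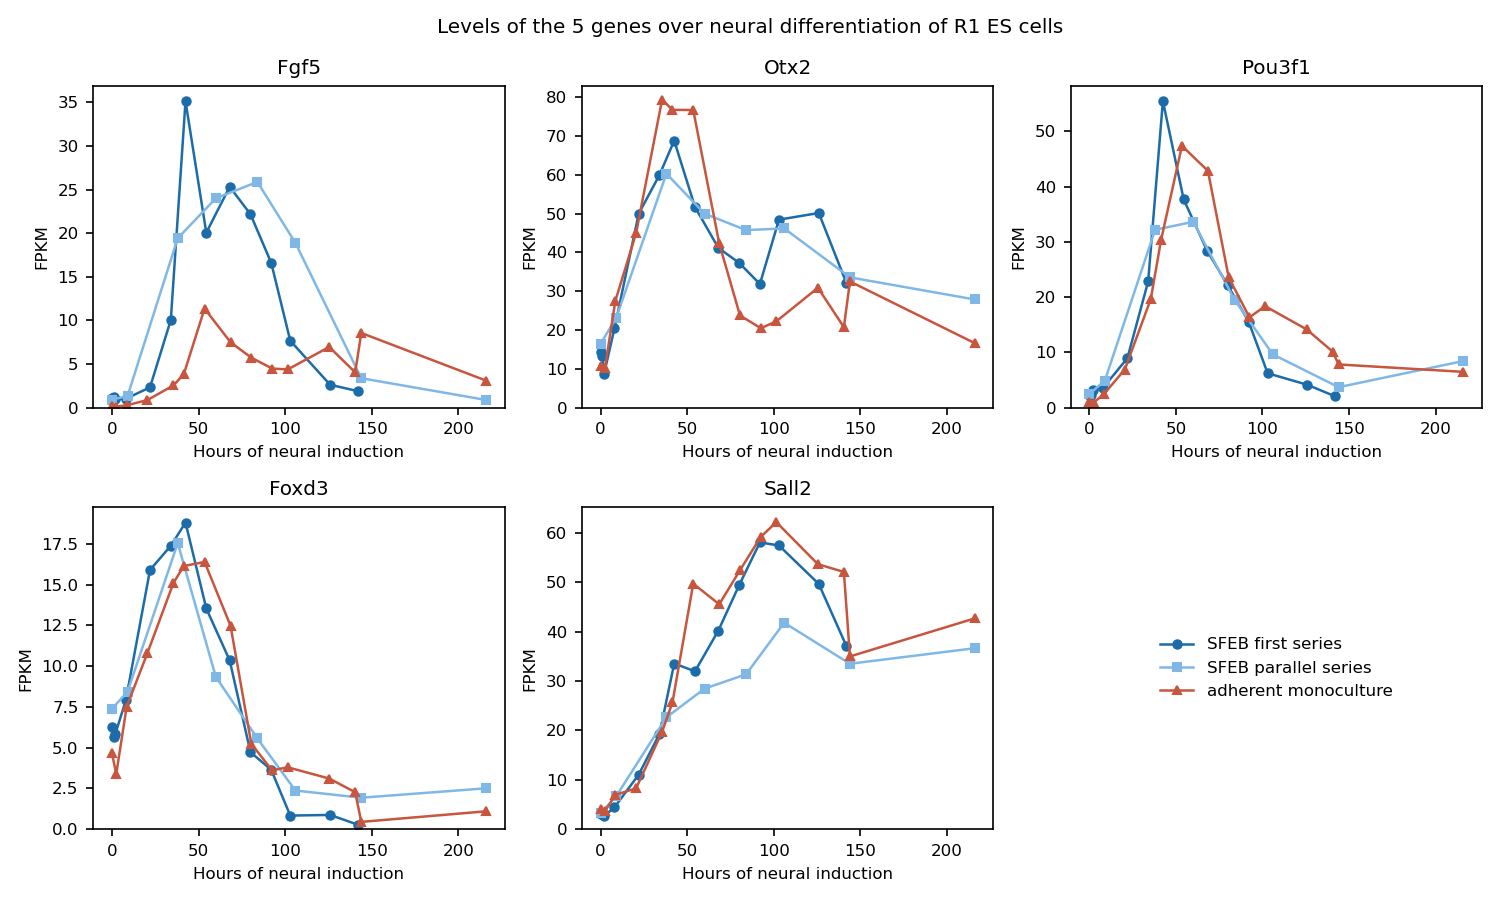
Level of each gene in FPKM (vertical axis, from 0) against hours of neural induction (horizontal axis) in the first SFEB series (circles), the parallel SFEB series (squares) and the adherent monoculture (triangles); each point is 1 library. Otx2, Pou3f1, Foxd3 and Fgf5 rose to a peak before 100 h and declined, while Sall2 rose until 92 to 106 h and stayed above 33 FPKM afterwards.

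Fgf5 was at or under 1.10 FPKM at 0 h in all 3 series. In the first SFEB series it was 1.10 FPKM at 0 h, 2.33 at 22 h, 10.0 at 34 h and 35.1 at 42.5 h, then 20.1 at 54.5 h, 25.3 at 68 h, 22.2 at 80 h, 16.6 at 92 h, 7.66 at 103 h, 2.62 at 126 h and 1.89 at 142 h. In the parallel series it was 0.923 at 0 h, 1.31 at 9 h, 19.4 at 38 h, 24.0 at 60 h, 25.9 at 84 h, 18.9 at 106 h, 3.37 at 144 h and 0.877 at 216 h. Every SFEB population between 34 and 106 h was thus above every population before or after. The adherent course was lower than the SFEB course up to 101.5 h, above it from 125.5 h on, and did not return to its start: 0.178 FPKM at 0 h, 0.861 at 20.5 h, 2.54 at 35.5 h, 3.82 at 41.5 h, 11.4 at 53.5 h, 7.49 at 68.5 h, 4.37 at 101.5 h, 6.95 at 125.5 h, 4.04 at 140.5 h, 8.56 at 144 h and 3.10 at 216 h. The highest adherent sample held 11.4 FPKM against 35.1 in the first and 25.9 in the parallel SFEB series. The tables were normalized separately and the difference was not tested.

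Otx2 was the most abundant of the 5 at its peak and the only transcription factor among them that exceeded 8 FPKM in every R1 population at 0 h. In SFEB culture it was 14.3 and 16.4 FPKM at 0 h in the first and parallel series, 49.9 at 22 h, 59.9 at 34 h, 60.3 at 38 h and 68.8 at 42.5 h. It declined to 31.8 at 92 h and was again at 48.4 at 103 h and 50.1 at 126 h, with 46.2 at 106 h in the parallel series. At 216 h it stood at 27.9 FPKM. The adherent samples held a plateau of 79.3, 76.7 and 76.7 FPKM at 35.5, 41.5 and 53.5 h, then 42.3 at 68.5 h and 20.5 to 32.5 FPKM from 80.5 to 144 h. A partial return after 100 h was thus seen in the first SFEB series. Adherent samples also rose again, from 20.5 FPKM at 92.5 h to 30.9 at 125.5 h and 32.5 at 144 h, with 20.7 at 140.5 h between them.

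Pou3f1 had a similar course to Fgf5 in SFEB culture. The first SFEB series gave 2.31 FPKM at 0 h, 8.95 at 22 h, 22.8 at 34 h, 55.5 at 42.5 h, 37.7 at 54.5 h, 28.4 at 68 h, 15.6 at 92 h, 6.22 at 103 h and 2.03 at 142 h. The parallel series gave 2.44 at 0 h, 32.2 at 38 h, 33.6 at 60 h, 19.4 at 84 h, 9.63 at 106 h, 3.69 at 144 h and 8.42 at 216 h. The adherent series gave 0.925 at 0 h, 6.89 at 20.5 h, 19.6 at 35.5 h, 30.4 at 41.5 h, 47.4 at 53.5 h, 42.9 at 68.5 h, 23.6 at 80.5 h, 18.4 at 101.5 h and 6.46 at 216 h. On the FPKM + 1 scale the peak was 17.1-fold above 0 h in the first SFEB series, 10.1-fold in the parallel series and 25.1-fold in the adherent series, against 17.2-, 13.98- and 10.5-fold for Fgf5. These ratios depend on the added 1 FPKM: with nothing added they were 24.05-, 13.78- and 51.2-fold for Pou3f1 and 31.9-, 28.05- and 63.8-fold for Fgf5, so that both the order of these genes in the adherent series and the order of the systems for Fgf5 turned.

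Foxd3 was present before induction and its rise was small. It stood at 6.28 and 7.39 FPKM at 0 h in the SFEB series, 15.9 at 22 h, 17.4 at 34 h, 17.6 at 38 h and 18.8 at 42.5 h, 2.72-fold above 0 h on FPKM + 1. It then fell to 10.4 at 68 h, 4.72 at 80 h, 0.830 at 103 h and 0.271 at 142 h, and was 2.37 at 106 h, 1.93 at 144 h and 2.50 at 216 h in the parallel series. Adherent cells gave 4.67 at 0 h, 10.8 at 20.5 h, 15.1 at 35.5 h, 16.4 at 53.5 h, 12.5 at 68.5 h, 5.23 at 80.5 h and 0.442 at 144 h. No sample from 80 h on reached the lowest sample of the 34 to 68.5 h interval in either system (9.35 and 12.5 FPKM).

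Sall2 rose with the others, peaked later and stayed above 50% of its peak. It was 3.03 FPKM at 0 h in the first SFEB series, 11.03 at 22 h, 33.5 at 42.5 h, 40.2 at 68 h, 58.0 at 92 h, 57.4 at 103 h, 49.6 at 126 h and 37.0 at 142 h. In the parallel series it was 3.22 at 0 h, 22.6 at 38 h, 31.3 at 84 h, 41.8 at 106 h and 36.6 at 216 h, and in the adherent series 3.98 at 0 h, 25.6 at 41.5 h, 49.7 at 53.5 h, 62.1 at 101.5 h and 42.7 at 216 h. Its last sample kept 63.8%, 87.6% and 68.6% of the peak in the 3 series. The corresponding shares were 5.37%, 3.39% and 27.3% for Fgf5, 3.67%, 25.1% and 13.6% for Pou3f1, 1.44%, 14.3% and 6.65% for Foxd3 and 46.6%, 46.2% and 21.0% for Otx2.

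The 5 genes therefore passed 50% of their peak at different times, by straight lines drawn between neighbouring samples. Foxd3 passed it first, at 10.1 to 11.01 h in the 3 series, followed by Otx2 at 14.5 to 16.9 h. Foxd3 and Otx2 started from 28.5% to 42.1% and 13.5% to 27.3% of their peaks, and the point midway between the 0 h level and the peak came at 16.1 to 21.8 h for Foxd3 and 18.01 to 20.9 h for Otx2, ranges that overlap. Pou3f1 passed 50% at 21.7 to 37.8 h, Fgf5 at 27.6 to 44.5 h and Sall2 at 34.9 to 44.2 h. Within each series the order was Foxd3, Otx2, Pou3f1, then Fgf5 and Sall2, of which Fgf5 came first in both SFEB series and Sall2 in the adherent series (44.2 against 44.5 h, less than 1 sampling step apart). On the way down Foxd3 passed 50% at 63.6 to 75.6 h, Pou3f1 at 69.3 to 89.9 h, Fgf5 at 81.0 to 121 h and Otx2 at 70.2 to 187 h. Otx2 in the first SFEB series (48.4 FPKM at 103 h) and Fgf5 in the adherent series (6.95 FPKM at 125.5 h) later stood above 50% of their peaks again. Each time was sampled once in a series, so these hours have no replicate error.

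**Figure D2:**
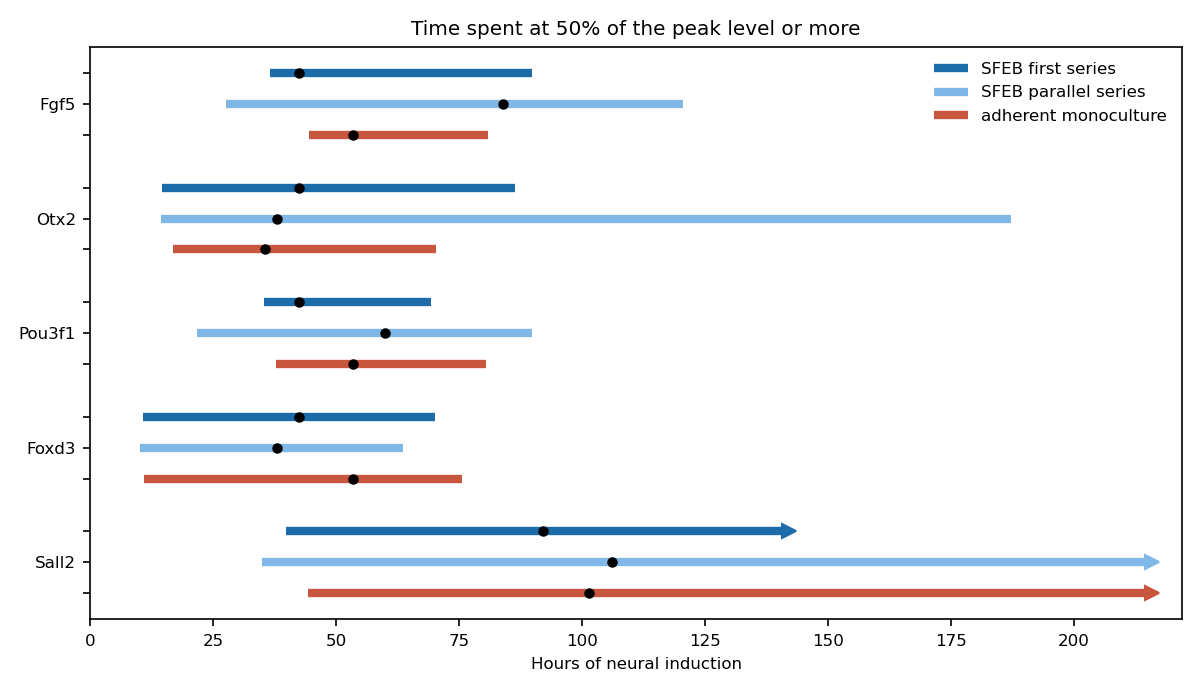
Bars run from the hour at which each gene first held 50% of its highest level to the hour it fell below it, interpolated between samples, with the peak as a black dot, for the first SFEB series (dark blue), the parallel SFEB series (light blue) and the adherent monoculture (red); arrows mark courses that ended above 50%. Foxd3 began first in each series and Sall2 had not fallen below 50% at the last sample.

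The only time sampled in both SFEB series was 0 h, where the 5 genes differed by 0.06 to 0.20 on the log2(FPKM + 1) scale. The authors corrected this table for batches that the sources used here do not name, and how far that sets the likeness of the series was not tested. Near the end of the interval the series differed more. Fgf5 was 18.9 FPKM at 106 h in the parallel series and 7.66 at 103 h in the first, a ratio of 2.29 on FPKM + 1. Foxd3 was 2.37 against 0.830, whereas Sall2 was 41.8 against 57.4 and Otx2 differed by 0.07 on the log2 scale.

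To test the changes, samples were grouped into 4 intervals and compared in limma on log2(FPKM + 1), the samples of an interval serving as its replicates. The intervals hold 7, 6, 5 and 4 SFEB populations and 4, 4, 3 and 4 adherent samples. The spread in these tests includes change with time inside an interval. Between 0 to 22 h and 34 to 68 h of SFEB culture all 5 genes rose, where 17% of 13363 genes were called higher. Fgf5 rose by 3.30 ± 0.26 (log2 difference ± SE, adjusted p = 3.3e-08), a 9.88-fold change, Pou3f1 by 2.92 ± 0.30, Sall2 by 2.47 ± 0.23 and Otx2 by 1.53 ± 0.25. Foxd3 rose by 0.77 ± 0.28 with an adjusted p of 0.033, and this call was lost in 10 of the 27 alternative settings, 8 of them the omission of 1 sample. Fgf5, Pou3f1 and Sall2 had medians of 1.10, 3.17 and 3.22 FPKM before and 22.0, 32.9 and 30.2 FPKM after. In the adherent cultures the same 5 genes rose, where 5.84% of 12879 genes were called higher. The differences were 3.44 ± 0.40 for Pou3f1, 2.40 ± 0.28 for Sall2, 2.29 ± 0.35 for Fgf5, 1.74 ± 0.38 for Otx2 and 1.17 ± 0.32 for Foxd3 (adjusted p = 0.023), the last lost in 4 of 18 settings. With 0.1 FPKM added before the log in place of 1, Fgf5 differed by 3.84. Adherent medians of Fgf5, Otx2, Pou3f1, Foxd3 and Sall2 were 0.221, 19.1, 1.70, 6.09 and 5.45 FPKM before and 5.66, 76.7, 36.6, 15.6 and 35.6 FPKM after.

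The genes separated in the next interval. From 34 to 68 h to 80 to 106 h of SFEB culture Foxd3 fell by 1.91 ± 0.31 (adjusted p = 0.00019) and Pou3f1 fell by 1.29 ± 0.33 (adjusted p = 0.0051), where 11.5% of genes were called lower. Sall2 rose by 0.70 ± 0.25 (adjusted p = 0.036), where 21.5% of genes were called higher, and lost this call in 8 of 27 settings. Fgf5 (-0.30 ± 0.28) and Otx2 (-0.39 ± 0.28) did not pass the test. In the adherent cultures Foxd3 fell by 1.63 ± 0.34 (adjusted p = 0.0039) and Otx2 fell by 1.55 ± 0.41 (adjusted p = 0.013), where 10.3% of genes were called lower. The median of all genes shifted by 0.14 in that comparison. Without the 92.5 h sample the Otx2 call was lost (adjusted p = 0.054). Sall2 (0.80 ± 0.30, adjusted p = 0.059), Pou3f1 (-0.76 ± 0.43) and Fgf5 (-0.16 ± 0.38) did not pass.

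After 125 h in SFEB culture Fgf5 fell by 2.57 ± 0.32 (adjusted p = 4.9e-06), Pou3f1 by 1.50 ± 0.36 (adjusted p = 0.0028) and Foxd3 by 0.89 ± 0.34 (adjusted p = 0.042, lost in 6 of 27 settings, and -1.39 with 0.1 FPKM added), where 15.1% of genes were called lower. Otx2 (-0.24 ± 0.31) and Sall2 (-0.23 ± 0.28) did not pass. In the adherent cultures none of the 5 genes passed, where 6.72% of genes were called in either direction and 3160 genes had an unadjusted p under 0.05. Fgf5 differed by 0.11 ± 0.38 there and Foxd3 by -1.03 ± 0.34 (adjusted p = 0.081). Without the 125.5 h sample Foxd3 passed (-1.27, adjusted p = 0.024). Whether the 2 systems differ in these changes was not tested.

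**Figure D3:**
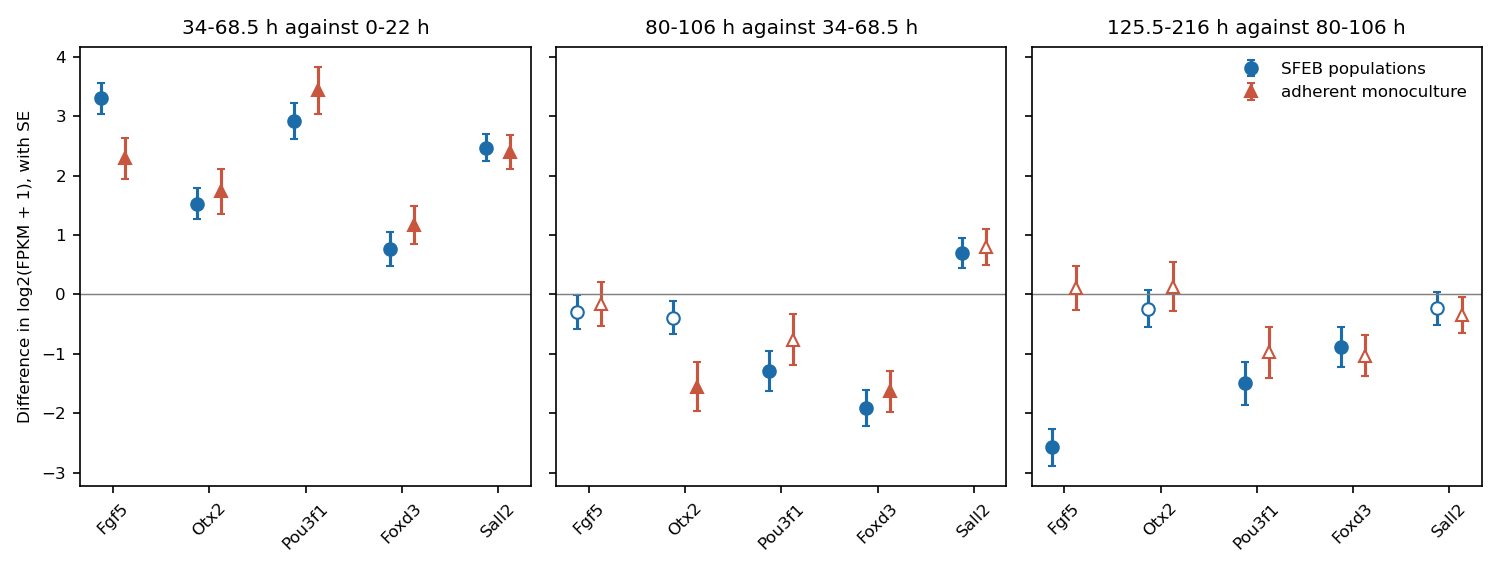
Difference in log2(FPKM + 1) between successive intervals (vertical axis) for each gene in SFEB populations (circles) and adherent monoculture (triangles); bars are SE from limma and filled symbols passed an adjusted p of 0.05. All 10 symbols are filled and above 0 in the first panel, and Foxd3 is filled and below 0 in both systems in the second.

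Markers of other cells moved with these intervals. A list of 10 fibroblast genes, which mark feeder cells, summed to 144 to 1020 FPKM in the SFEB populations up to 22 h and to 15.2 to 76.4 FPKM from 34 to 68 h, with 10 of 10 called lower, and to 158 to 464 and 73.0 to 123 FPKM in the adherent samples, with 8 of 10 called lower, where 23.5% and 9.26% of all genes were. In bulk samples fewer cells of a type and less RNA per cell cannot be told apart. The part of these cells in the rise of the 5 genes was not tested in the R1 samples. Naive pluripotency genes summed to 750 to 1166 FPKM up to 22 h of SFEB culture and to 48.5 to 255 FPKM after 125 h, and 11 neural progenitor and neuron genes to 69.9 to 119 and 637 to 1565 FPKM. Primitive streak, mesoderm and endoderm genes, 7 of 10 in the SFEB table, summed to 3.18 to 9.33 FPKM at 34 to 68 h and 7.77 to 54.5 FPKM at 80 to 106 h, with 4 of 6 tested called higher, where 21.5% of all genes were. Of the 10 genes 8 were in the adherent table and summed to 4.01 to 5.52 FPKM at 80.5 to 101.5 h and 9.07 to 71.2 FPKM after 125 h, with 4 of 4 tested called higher, where 5.51% of all genes were. Their part in the late adherent levels of Fgf5 was not tested.

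Other genes of the epiblast after the naive state were counted in the same comparisons. Of 13 such genes, 10 rose and 1 fell from 0 to 22 h to 34 to 68 h of SFEB culture, with a median difference of 1.58 against -0.03 over all genes, and 8 rose and none fell in the adherent cultures (median 1.04 against -0.07). Pim2, a kinase gene, rose by 3.43 ± 0.35 and 3.48 ± 0.58, and Dnmt3b, a de novo DNA methyltransferase, by 3.15 ± 0.34 and 2.35 ± 0.46. Etv4, an ETS factor downstream of FGF signalling, was the 1 that fell, by 0.57 ± 0.20 in SFEB culture. The shares of all genes called higher were 17% and 5.84%. After 125 h 10 of the 13 fell in SFEB culture and 2 in the adherent cultures, where 15.1% and 1.2% of all genes were called lower, Wnt8a among them in both: it fell by 3.58 ± 0.46 in SFEB culture, and it fell by 2.27 ± 0.62 in the adherent cultures. Of the 11 naive pluripotency genes tested, 9 fell in SFEB culture and 7 in the adherent cultures as the 5 genes rose, where 23.5% and 9.26% of all genes were called lower.

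FGF signalling genes did not share a single course with Fgf5. Of 8 receptor and feedback genes 2 rose and 1 fell in SFEB culture at 34 to 68 h and 3 rose in the adherent cultures, where 17% of all genes were called higher and 23.5% lower in SFEB culture and 5.84% higher and 9.26% lower in the adherent cultures. Dusp6, a phosphatase induced by the FGF-ERK pathway, rose by 1.00 ± 0.28 and 1.18 ± 0.23 and was highest at 54.5 h in the first SFEB series and at 53.5 h in the adherent series. Of 6 other FGF ligands tested 2 rose and 2 fell in SFEB culture and 2 rose and 1 fell in the adherent cultures. Fgf15 rose in both systems, by 2.103 ± 0.232 and 1.77 ± 0.24, and Fgf8 in SFEB culture by 2.02 ± 0.24, with a difference of 0.19 ± 0.16 in the adherent cultures that did not pass. Fgf15 and Fgf8 were highest at 103 h in the first SFEB series, at 63.98 and 18.7 FPKM, later than Fgf5. After 125 h of SFEB culture 5 of the 6 ligands fell, Fgf8 by 2.58 ± 0.29 and Fgf15 by 1.50 ± 0.28, where 15.1% of all genes were called lower, and none of the 6 passed in the adherent cultures, where Fgf5 did not pass either. Fgf4, the ligand of naive cells, was 41.2 FPKM at 0 h and 1.21 FPKM at 142 h.

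Some paralogs of the transcription factors were highest at other times. Pou3f2, Pou3f3 and Pou3f4, which are expressed in neural progenitors, had differences of 0.03 to 0.23 at 34 to 68 h of SFEB culture that did not pass and were highest in the last sample of the first series, at 47.4, 42.4 and 32.3 FPKM, where Pou3f1 was 2.03. They rose by 3.37 ± 0.32, 3.20 ± 0.23 and 3.31 ± 0.25 after 125 h of SFEB culture, as Pou3f1 fell, and by 1.27 ± 0.36, 2.03 ± 0.28 and 2.099 ± 0.284 in the adherent cultures. Sall1 was highest at 42.5 h in the first SFEB series and Sall4, a pluripotency factor, at 8 h, against 92 h for Sall2. Of 8 paralogs tested in SFEB culture 1 rose at 34 to 68 h and 5 rose and 1 fell after 125 h. Of 6 neural crest genes tested 4 rose after 125 h of SFEB culture. Of all genes 17% were called higher at 34 to 68 h, and 24.7% were called higher and 15.1% lower after 125 h.

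Genes whose courses were most like those of the 5 were taken by the lower of the Pearson correlations over 22 SFEB populations and 15 adherent samples, among 2159 genes that changed at least 4-fold in both tables. Samples of one culture share their time, so the values describe likeness only. For Fgf5 these were Kcnk1 (r = 0.98 and 0.95), a potassium channel gene, Emb (0.90 and 0.89) and Epha1 (0.91 and 0.89). For Pou3f1 they were Pcdh1 (0.96 and 0.96), Vrtn and Rxrg, for Foxd3 Mkrn1 (0.94 and 0.95), Phc1 and Capn3, and for Sall2 Ptpn13 (0.97 and 0.97), Aff3 and Efnb2. Otx2 had no neighbour as close: Lef1 came first with 0.89 and 0.77, followed by Pou3f1 (0.74 and 0.73) and Dnmt3a. Among the 5 genes themselves the closest pair in SFEB culture was Fgf5 and Pou3f1 (0.90, and 0.85 in the adherent series), whereas in the adherent series it was Fgf5 and Sall2 (0.91, and 0.67 in SFEB culture). The lowest values were those of Foxd3 and Sall2 (-0.34 and -0.16).

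Single cells showed in how many cells each transcript was detected. Their values are log10(RPKM + 1), quantile normalized by the authors. A cell was counted as holding a transcript above 0.5 RPKM, with exact 95% binomial (Clopper-Pearson) intervals that cover counting error only. In 16 cells of 0 and 9 h, Fgf5 and Sall2 were above this level in none, Foxd3 in 2, Pou3f1 in 4 and Otx2 in 8. In 16 cells of 38 and 60 h Otx2 was detected in 16, Pou3f1 and Sall2 in 11 each, Foxd3 in 6 and Fgf5 in 5. A transcript that was absent and one that was missed cannot be told apart in these counts. The paper states that signalling genes of low level often go undetected in single cells. Foxd3 was counted in 0 of 8 cells at 0 h and at 84 h, where the populations of the parallel series held 7.39 and 5.56 FPKM.

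Fgf5 was found in most cells at 1 time. It was above 0.5 RPKM in 0 of 8 cells at 0 h and again at 9 h (0% to 36.9%), although 7 of the 8 cells at 0 h held values above 0, up to 0.385 RPKM. It was in 3 of 8 at 38 h, 2 of 8 at 60 h and 7 of 8 at 84 h (47.3% to 99.7%), and in 1 of 8 at 106 h (0.316% to 52.7%). At 38 h the 3 cells held 3.54, 24.0 and 41.6 RPKM and at 60 h the 2 cells held 41 and 63.4 RPKM, while no other cell at these times was above 0.5 RPKM. At 84 h the lowest, median and highest cells held 0.244, 19.97 and 62.9 RPKM. The population of the same series held 19.4, 24.0, 25.9 and 18.9 FPKM at 38, 60, 84 and 106 h, so the 106 h cells, at a mean of 0.233 RPKM, stood far below their population.

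Otx2 was present in 8 of 8 cells at 38, 60, 106 and 144 h but in 5 of 8 at 84 h. Its median was 0.737 RPKM at 0 h, 32.1 at 38 h, 45 at 60 h, 1.44 at 84 h, 7.72 at 106 h, 11.6 at 144 h and 0.352 at 216 h. The spread was wide at each time, from 1.57 to 278 RPKM at 60 h and from 2.02 to 244 RPKM at 106 h. Its highest mean, 96.5 RPKM at 144 h, rested on cell 16 of that time with 697 RPKM, without which the highest mean was 84.1 RPKM at 60 h.

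Pou3f1 was highest at 38 h by mean (30.6 RPKM) and by median (13.4 RPKM), with 6 of 8 cells, and was in 0 of 8 cells at 144 h. Single cells with high levels occurred before induction, 33.0 RPKM in 1 cell at 0 h, early in induction, 62.1 RPKM in 1 at 9 h, and late, 66.8 RPKM in 1 at 216 h. Foxd3 was in 5 of 8 cells at 38 h, all at or under 6.44 RPKM, and in 0 to 2 of 8 at each other time. The highest Foxd3 cell held 37.9 RPKM at 106 h, where the other 7 were at or under 0.178 RPKM, so the highest mean, 4.76 RPKM at 106 h, is that of 1 cell. By the median Foxd3 was highest at 38 h. Sall2 was in 6 of 8 cells at 38, 106 and 216 h and in 2 of 8 at 144 h, with its highest mean at 106 h (20.2 RPKM) and its highest median at 216 h (8.28 RPKM). By the mean 1 of the 5 genes was highest at 38 or 60 h, where 13.8% of 11449 genes were.

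**Figure D4:**
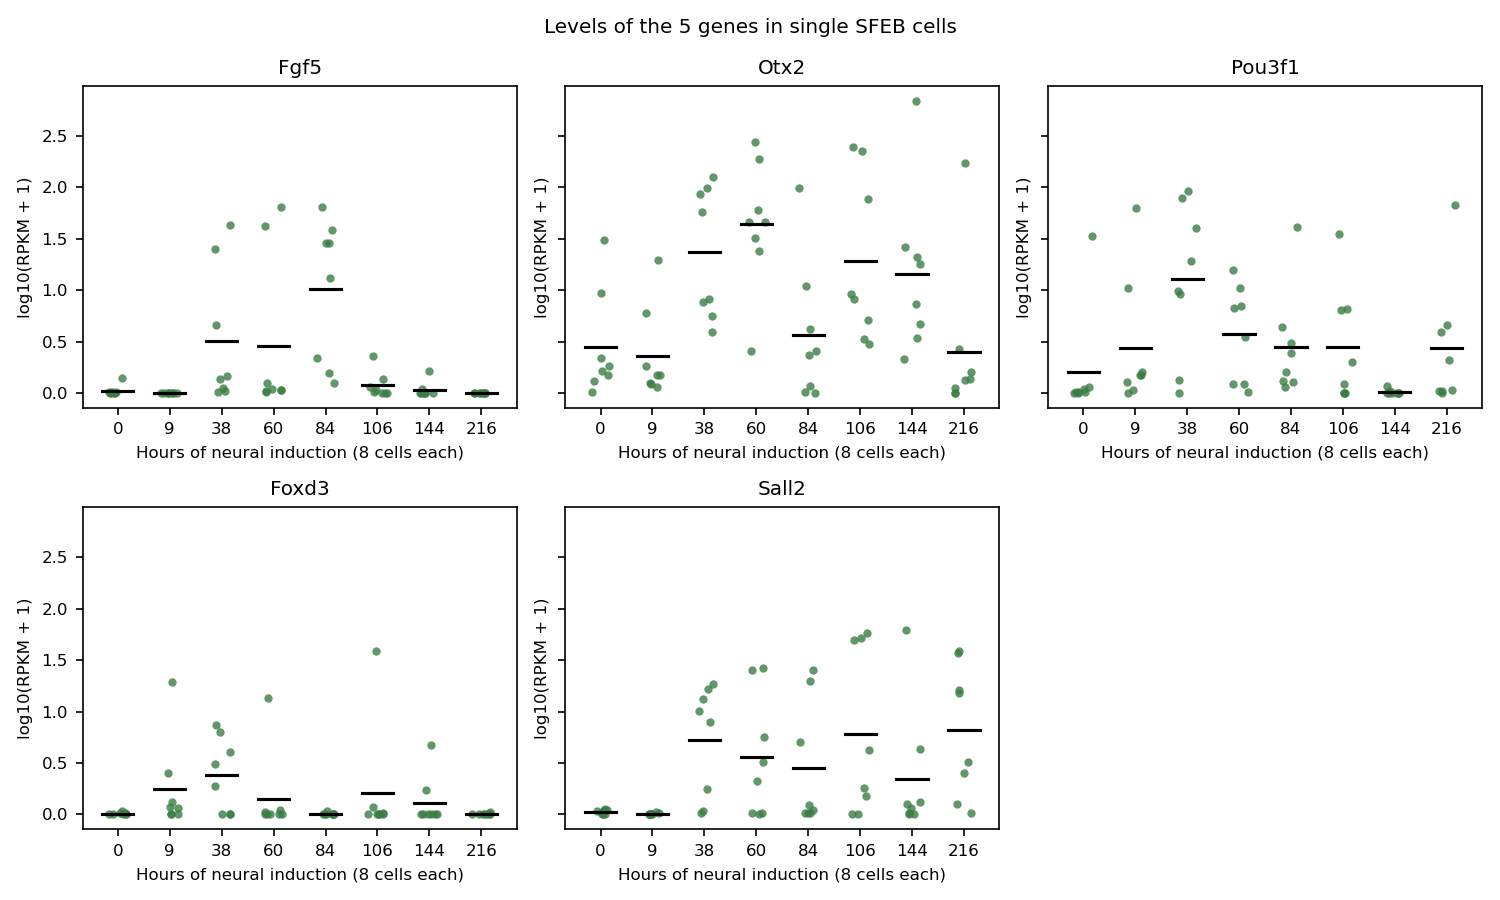
Level of each gene in log10(RPKM + 1) (vertical axis) in single SFEB cells, 8 at each time in hours (horizontal axis, evenly spaced); points are cells, shifted sideways for clarity, and lines are means. Fgf5 is 0 in every cell at 9 and 216 h and high in most cells at 84 h, while Otx2 spans over 2 log10 units at 60 and 144 h.

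The 5 transcripts were seldom all found in one cell. Of the 16 cells of 38 and 60 h, 2 held all 5 above 0.5 RPKM, 4 held 4, 3 held 3 and 7 held 2. None of the 16 cells at 0 and 9 h held more than 2, and at 84 and 106 h 8 of 16 held 3, 2 held 4 and none held 5. Among the 5 Fgf5 cells of 38 and 60 h, 4 held Pou3f1, 3 held Foxd3 and 3 held Sall2. Across these 16 cells log10 levels of Pou3f1 and Sall2 had r = 0.62, Pou3f1 and Foxd3 r = 0.57, and Fgf5 with each of the other 4 between -0.21 and 0.13. These values mix 2 collection times and serve as a description.

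Taking the mean of the 8 cells of a time as 1 sample, limma called none of the 5 genes, and none of 11449 genes (0%), between any of the successive pairs of times, with 523, 555 and 993 genes at an unadjusted p under 0.05. With 2 times in each interval, the differences between 0 to 9 h and 38 to 60 h were 1.10 ± 0.31 on the log10 scale for Otx2 (adjusted p = 0.61), 0.63 ± 0.25 for Sall2, 0.52 ± 0.26 for Pou3f1, 0.47 ± 0.23 for Fgf5 and 0.14 ± 0.13 for Foxd3. Later differences reached -0.58 ± 0.31 for Otx2 between 38 to 60 h and 84 to 106 h, and -0.52 ± 0.23 for Fgf5 between 84 to 106 h and 144 to 216 h. The study sets cell 16 of 216 h (S4b-16) apart as an outlier. It held at most 0.36 RPKM of any of the 5 genes, and leaving it out changed no peak time and no call.

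In the E14 libraries the Fyn level was 2.74 to 4.00 FPKM in WT and 0.598 to 1.10 in Fyn KO at day 0, and 4.54 to 9.44 and 1.13 to 1.58 at day 4. The KO libraries were below all WT libraries at both days but not at 0. The 10 fibroblast genes summed to 2.35 to 17.7 FPKM in these libraries, and 8 of them were under 0.5 FPKM in every library of each day 0 group. WT replicate 1 at day 4 stood apart, with a sum of 212 FPKM over 12 neural progenitor and neuron genes against 44.7 and 70.8 in the other 2. It also held the highest Sall2 and the lowest Fgf5, Otx2 and Foxd3 of the WT day 4 group. Whether these differences go together was not tested. So did KO replicate 3 at day 0, which held 12.4 FPKM of Otx2 against 0.397 and 0.395. Nothing in the sources used here says whether the 3 libraries of a group came from separate cultures, so p-values measure the spread between these libraries.

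From day 0 to day 4, 4 of the 5 genes rose in both genotypes. Fgf5 was listed at 0 in all 3 WT libraries at day 0 and held 7.22, 16.6 and 17.3 FPKM at day 4. In Fyn KO it was 0, 0.0232 and 0.132 FPKM at day 0 and 37.8, 16.7 and 34.2 FPKM at day 4. Otx2 went from 1.02, 8.57 and 9.00 to 61.3, 79.7 and 80.8 FPKM in WT and from 0.397, 0.395 and 12.4 to 86.7, 110 and 137 FPKM in KO. Group means went from 0 to 13.7 FPKM in WT and from 0.0518 to 29.6 FPKM in KO for Fgf5. For Otx2 they went from 6.19 to 73.9 FPKM in WT and from 4.41 to 111 FPKM in KO.

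Pou3f1 went from 0.184, 0.290 and 0.279 FPKM to 15.98, 12.1 and 23.9 in WT, and from 0.0866, 0 and 2.66 to 42.8, 27.4 and 28.9 in KO. Sall2 went from 3.05, 1.56 and 1.55 FPKM to 65.4, 20.8 and 28.8 in WT, and from 0.630, 0.751 and 2.02 to 19.7, 13.3 and 29.2 in KO. Foxd3 was lower at day 4, going from 12.6, 8.90 and 10.1 FPKM to 2.81, 3.03 and 7.73 in WT, and from 8.95, 14.4 and 8.13 to 8.12, 6.15 and 5.21 in KO. Its group means were 10.5 and 4.52 FPKM in WT and 10.5 and 6.50 FPKM in KO, and the highest KO library at day 4 was only 0.01 FPKM below the lowest at day 0. At 92 h and 92.5 h, the R1 times nearest to day 4, Foxd3 was likewise under its 0 h level, with 3.64 FPKM against 6.28 in the first SFEB series and 3.61 against 4.67 in the adherent series.

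In limma, WT log2 differences from day 0 to day 4 were 3.82 ± 0.42 for Pou3f1 (adjusted p = 0.00022), 3.79 ± 0.33 for Fgf5 (adjusted p = 0.00011), 3.69 ± 0.80 for Otx2 (adjusted p = 0.0070) and 3.56 ± 0.41 for Sall2 (adjusted p = 0.00027), where 15.5% of 12257 genes were called higher. Foxd3 fell by 1.16 ± 0.31 (adjusted p = 0.020), where 10.3% were called lower. That call was lost in 5 of 16 alternative settings, among them those without WT day 4 replicate 1 (adjusted p = 0.074). In Fyn KO the same 4 genes rose, where 11.8% of genes were called higher: Otx2 by 5.22 ± 0.80, Fgf5 by 4.78 ± 0.33, Pou3f1 by 4.40 ± 0.42 and Sall2 by 3.34 ± 0.41. Foxd3 in KO, at -0.60 ± 0.31, did not pass (adjusted p = 0.20). Of 13 other epiblast genes 9 rose in WT and 7 in KO, and of 12 naive pluripotency genes 11 fell in WT and 8 in KO, where 7.56% of all genes were called lower in KO. Without KO day 0 replicate 3 the KO difference of Otx2 was 6.30. These differences depend on the 1 FPKM added before the log, since day 0 levels lay under 1 FPKM in all 6 libraries for Fgf5, in 5 of 6 for Pou3f1 and in 2 of 3 KO libraries for Otx2 and Sall2. With 0.1 FPKM added, Fgf5 differed by 7.01 in WT and 7.62 in KO.

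**Figure D5:**
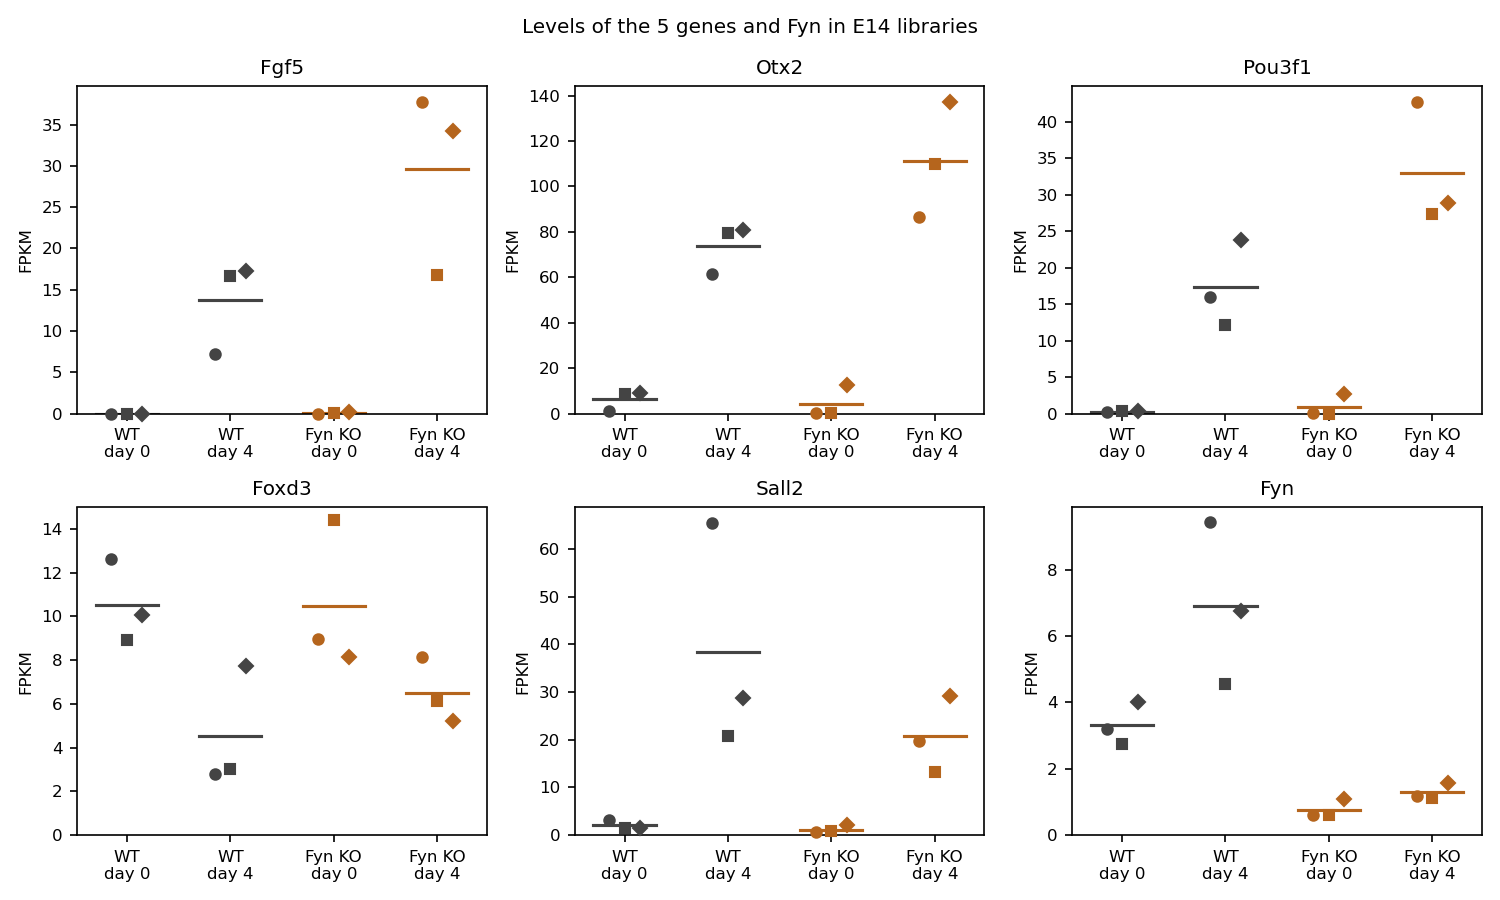
Level of each gene and of Fyn in FPKM (vertical axis, from 0) in WT (grey) and Fyn KO (brown) E14 libraries at day 0 and day 4; symbols are replicates 1 (circle), 2 (square) and 3 (diamond) and lines are group means of 3. The 4 genes Fgf5, Otx2, Pou3f1 and Sall2 are higher at day 4 in both genotypes, Foxd3 has lower means at day 4, and Fyn is lower in each KO group.

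None of the 5 genes passed the comparison of Fyn KO with WT at day 4, where 0.0734% of genes (9 of 12257) were called and 1483 had an unadjusted p under 0.05. All 3 KO libraries were above all 3 WT libraries for Otx2 and Pou3f1, as they were for 6.54% of genes, and no member had all KO libraries below all WT libraries, as 9.99% of genes did. By replicate number, Fgf5 was higher in KO in 3 of 3 pairs, by 0.14 FPKM in the second, and the share of all genes that did so was not counted. The difference was 1.07 ± 0.33 for Fgf5 (adjusted p = 0.24), 0.92 ± 0.42 for Pou3f1 (adjusted p = 0.42), 0.57 ± 0.80 for Otx2, 0.53 ± 0.31 for Foxd3 and -0.76 ± 0.41 for Sall2. Over the 16 alternative settings the Fgf5 difference ran from 0.69, without WT replicate 1, to 1.42 and its adjusted p from 0.18 to 0.52. At day 0 none of the 5 passed either, where 0.171% of genes were called and 1785 had an unadjusted p under 0.05, with differences between -0.96 and 0.34. The lowest was that of Otx2, which without KO replicate 3 was -2.05 (adjusted p = 0.13). The interaction of genotype and day called none of the 5 and none of all genes (0%), with 537 genes at an unadjusted p under 0.05. Its estimates were 1.53 ± 1.12 for Otx2, 0.99 ± 0.47 for Fgf5, 0.57 ± 0.60 for Pou3f1, 0.56 ± 0.45 for Foxd3 and -0.22 ± 0.58 for Sall2 (adjusted p = 0.997 for each).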

How the data were processed

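The deposited tables were used as the authors made them. Per the methods, reads were mapped to mm9 and quantified with TopHat and Cufflinks. The submitters' processing notes name TopHat2 2.0.8b and Cufflinks 2.1.1, and mm10 for the E14 libraries. FPKM of the adherent and E14 libraries were deposited by the authors with no batch correction stated. The authors' population values are other than plain FPKM: the authors corrected them with ComBat, for batches not named in the sources used here, and left them unlogged, and the 1256 negative values were set to 0 here. For the cells the authors deposited log10 values of RPKM + 1, keeping genes over 0.5 RPKM in at least 8 cells. Read depth is not known from these values.

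limma 3.58.1 in R 4.3.3 was fitted to genes that reached 1 FPKM in 3 or more samples, with 1 FPKM added before the log, trended variance and Benjamini-Hochberg adjustment over all genes at 0.05. The E14 fit held the 4 groups and the SFEB fit the 4 intervals with series as a covariate. The cell fit took the mean log10 value of the cells of a time as 1 sample, with all 11449 genes. Fits were tested on simulated data. E14 replicate numbers were taken as pairing libraries where all 3 same-number residual correlations exceeded 0.1. These were 0.199, 0.220 and 0.224 for WT at days 0 and 4, and 0.136, 0.258 and 0.240 for day 4 between genotypes, which were taken as paired. The values 0.0239, 0.0899 and 0.00112 for KO at days 0 and 4, and 0.0628, 0.339 and -0.115 for day 0 between genotypes, did not meet this. The main E14 fit, which gave the differences and p-values in the text, held no term for pairing. Pairing entered only as the replicate block among the alternatives. Named genes were the 5 members in every sample, the 3 genes most like each, up to 4 list genes with the largest differences, and Fyn. Etv4, Fgf4 and Sall4 were added after their values were seen. Alternatives covered the added value (0.1), no filter, quantile normalization, a replicate block, the series covariate, and leaving out each sample. Members and lists were chosen with earlier results of these data known. Python 3.11.15 with pandas 2.3.3, numpy 2.4.6, scipy 1.17.1 and matplotlib 3.10.9 was used.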

Additional observations from a re-analysis of the deposited data

Results flagged for a closer look

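Each gene was checked at each of the 8 times for a cell far from the other 7, by Dixon's ratio with a limit of 0.526 for 8 values of log10(RPKM + 1). Of 40 such groups 17 exceeded it. Chance alone flags about 1 group in 20 for values with a normal spread, and these values are mostly at or near 0, with 1 or a few cells above. High cells with levels over 1 were Pou3f1 in cell 4 of 0 h (1.53), cell 4 of 84 h (1.61) and cell 12 of 216 h (1.83), Foxd3 in cell 5 of 9 h (1.29), cell 6 of 60 h (1.13) and cell 11 of 106 h (1.59), Otx2 in cell 16 of 144 h (2.84) and cell 13 of 216 h (2.23), and Sall2 in cell 2 of 144 h (1.79). Foxd3 in cell 14 of 144 h was at 0.68. The others lay at low levels: Fgf5 in cell 2 of 0 h (0.14), cell 4 of 106 h (0.36) and cell 16 of 144 h (0.21), Pou3f1 in cell 8 of 144 h (0.068), and Foxd3 in cell 1 of 0 h (0.037), cell 3 of 84 h (0.031) and cell 6 of 216 h (0.023).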

How the results depend on the processing

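No member reversed direction where it was called. The count of members called was within 1.5 times its value in all alternatives but 2. It ran from 1 to 3 in adherent cultures from 35.5-68.5 to 80.5-101.5 h on leaving out each sample (1 without 92.5 h), and from 0 to 1 after 125 h (1 without 125.5 h). Single calls lost or gained were those of Foxd3, Sall2 and Otx2. Foxd3 in SFEB culture at 34 to 68 h had an adjusted p of 0.097 with 0.1 FPKM added and 0.061 in the first series alone, and Sall2 at 80 to 106 h 0.053 and 0.082. With quantile normalization Sall2 passed in the adherent cultures at 80.5 to 101.5 h (adjusted p = 0.046).

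Over all genes, counts of calls that moved more were 9 for KO against WT at day 4 (46 with no filter, 17 with quantile normalization, 5 to 14 leaving out replicates), 21 at day 0 (42 with no filter, 4 to 128), 0 for the interaction (4 with no filter, 0 to 4), 3166 for WT over time (1831 to 3528), 2370 for KO over time (1041 to 3063), 5315 after 125 h of SFEB culture (1905 in the first series alone), 1945, 3704 and 865 in the adherent comparisons (1087 to 2254, 1834 to 5131 and 141 to 1882) and 0 in cells after 125 h (208 without 144 h, 79 without 216 h). The lowest and highest counts came without KO replicate 1 and WT replicate 3 at day 4 (5 and 14), WT day 0 replicates 2 and 1 at day 0 (4 and 128), WT day 0 replicate 2 over time in WT (1831), KO day 0 replicate 2 over time in KO (1041), and, in the adherent comparisons, the 2.5 h (1087), 92.5 h (1834), 80.5 h (141) and 125.5 h (1882) samples. In the fit with the replicate block 38 genes were called at day 0 and 2 for the interaction. The block changed no call of the 5 genes (5 called in WT and 4 in KO over time, 0 between genotypes and 0 for the interaction).

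Of the 20 peak times that moved, 10 did so under a 3-point moving mean over consecutive samples: to 54.5 h for Fgf5 and Pou3f1, 34 h for Foxd3 and 103 h for Sall2 in the first SFEB series, to 60 h for Fgf5 and Otx2 and 144 h for Sall2 in the parallel series, and to 68.5 h for Fgf5 and 41.5 h for Otx2 and Foxd3 in the adherent series. Foxd3 also moved to 41.5 h there with quantile normalization and with median scaling. In single cells the mean of log10 values put Otx2 at 60 h, Foxd3 at 38 h and Sall2 at 216 h, and so did the median of the cells. Without cell 16 of 144 h Otx2 was at 60 h, and without cell 11 of 106 h Foxd3 was at 9 h. The median, the omission of either cell and the peak ratios with nothing added were chosen after seeing the data. Of 70 alternative peak times 50 did not move. With 1 library at each time, the sampling step limits every hour given.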
